A study of Mus musculus with 4 samples.

Results

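The 10 genes described here carry out antigen presentation by the major histocompatibility complex (MHC), and they were examined in nuclei from the fat of the mouse thymus and of the epigonadal depot. They were chosen by symbol, as 5 class I genes (B2m, H2-K1, H2-D1, Tap1 and Tap2) and 5 class II genes (Cd74, H2-Aa, H2-Ab1, H2-Eb1 and Ciita). All 10 were present among the 32285 genes of the RNA matrices. One single-nucleus RNA library came from the pooled thymi of 6 male mice aged 4 months, and another from epigonadal white fat of male mice of the same age. A multiome library, which reads RNA and open chromatin of each nucleus together, was made from the thymi of 16 pooled females aged 6 months, and its chromatin fragments were used. All mice were naïve wild-type C57/BL6 animals on standard chow, and nuclei were taken from the layer of cells that floated after collagenase digestion. Each group was thus 1 library, so no difference between groups has a replicate check, no p-value is given, and every 95% interval covers counting error only.

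Class I molecules sit on nearly every nucleated cell and show peptides from the cell's own proteins to CD8 T cells. A heavy chain, encoded by H2-K1 or H2-D1 in this strain, pairs with the light chain B2m, and the transporter made of Tap1 and Tap2 pumps peptides into the endoplasmic reticulum. Class II molecules are mostly restricted to dendritic cells, B cells, macrophages and thymic epithelium and show engulfed proteins to CD4 T cells. H2-Aa and H2-Ab1 encode the alpha and beta chains of H2-A, H2-Eb1 encodes the beta chain of H2-E, Cd74 is the invariant chain that guards the empty groove, and Ciita is the transactivator that switches the class II genes on. C57BL/6 mice do not make the H2-E alpha chain, so their H2-Eb1 product has no partner at the cell surface. In the thymus both classes present the self-peptides on which developing T cells are selected.

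Transcription of both classes runs through a shared promoter module, in which an X region bound by RFX factors stands upstream of a Y box bound by NF-Y. Promoters were found for 6 of the 10 members in RefSeq (build GRCm38.p6), and 4 are printed to show which parts of that module each gene holds. Each is the 250 bases before the annotated start, 5′ to 3′ on the gene's own strand. Capitals mark matches, on either strand, to CCAAT (the Y box, which reads ATTGG from the other strand), GNNACNNNTGANG (the X region), GGGGATTCCC (a kappa B site) and GAAANNGAAA (an interferon response element). The X region pattern was written from letters that H2-Eb1, H2-D1 and H2-K1 share, so its presence in those genes is a description. The promoter of B2m lies at chr2:122147437-122147686 on the plus strand, that of H2-D1 at chr17:35262844-35263093 on the plus strand, that of H2-Aa at chr17:34287824-34288073 on the minus strand and that of H2-Eb1 at chr17:34305617-34305866 on the plus strand.
B2m: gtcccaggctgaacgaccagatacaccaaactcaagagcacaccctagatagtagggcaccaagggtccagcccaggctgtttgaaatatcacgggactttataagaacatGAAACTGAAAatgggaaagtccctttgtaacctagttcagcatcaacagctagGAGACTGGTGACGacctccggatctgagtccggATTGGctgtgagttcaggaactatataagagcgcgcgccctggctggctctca
H2-D1: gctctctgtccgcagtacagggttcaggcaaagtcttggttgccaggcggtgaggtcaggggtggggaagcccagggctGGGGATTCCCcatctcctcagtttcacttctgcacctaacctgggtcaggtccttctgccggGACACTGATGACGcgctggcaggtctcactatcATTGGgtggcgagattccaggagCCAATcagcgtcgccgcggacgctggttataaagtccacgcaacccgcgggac
H2-Aa: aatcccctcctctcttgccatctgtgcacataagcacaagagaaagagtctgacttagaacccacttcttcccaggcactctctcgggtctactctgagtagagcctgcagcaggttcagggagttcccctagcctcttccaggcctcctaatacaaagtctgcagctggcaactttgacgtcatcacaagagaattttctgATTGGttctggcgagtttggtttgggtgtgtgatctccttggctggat
H2-Eb1: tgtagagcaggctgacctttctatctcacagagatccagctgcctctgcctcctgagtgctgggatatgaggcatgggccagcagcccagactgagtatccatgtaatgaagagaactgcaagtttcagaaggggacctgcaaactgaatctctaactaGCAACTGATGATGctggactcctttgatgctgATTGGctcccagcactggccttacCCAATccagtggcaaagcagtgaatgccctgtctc
CCAAT was found in 6 of the 6 member promoters, against 33.9% of 32851 promoters of the same length. The X region pattern was found in 5 of 6, against 2.53%. The matches read GAGACTGGTGACG in B2m, GACACTGTTGACG in H2-K1, GACACTGATGACG in H2-D1, GAGACAGGTGACG in Tap1 and GCAACTGATGATG in H2-Eb1. The H2-K1 window stands before the most upstream start in the promoter table, but it lies inside the RefSeq gene span, which ends at base 34000619. A CCAAT on the reverse strand followed the X region after 20 bases in B2m, H2-K1 and H2-D1 and after 19 bases in H2-Eb1. Tap1 did not have this order, since its CCAAT lay at −222 to −218, upstream of its X region match at −94 to −82. The kappa B site GGGGATTCCC stood in H2-K1 and H2-D1, which share 170 identical bases among 190 aligned, and was found in 0.0852% of promoters. It was searched as this exact sequence with no free base, so other kappa B forms were not counted and its presence is a description. This form of the interferon element was found in B2m alone of the 6 (GAAACTGAAA), against 2.98% of promoters. Other forms of it were not searched, so their absence from the heavy-chain promoters is not shown. H2-Aa held the Y box without this form of the X region.

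On the GRCm38 assembly 7 of the 10 genes lie in or beside the MHC on chromosome 17: H2-K1 at chr17:33996012-34000619, Tap1 at chr17:34187556-34197225, Tap2 at chr17:34204479-34216321, H2-Ab1 at chr17:34263227-34269418, H2-Aa at chr17:34282744-34287823, H2-Eb1 at chr17:34305867-34316674 and H2-D1 at chr17:35263094-35267497. B2m lies at chr2:122147687-122153082, outside the MHC. Ciita, at chr16:10480014-10531064, and Cd74, at chr18:60803849-60812652, complete the set.

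The thymic matrix held 22600 barcodes with 10054839 UMIs (counted molecules), of which 365 carried a label, and the epigonadal matrix held 5043 barcodes with 6504841 UMIs, of which 1564 carried one. Ad Ia was the label of 35 thymic and 106 epigonadal nuclei, Ad Ib of 49 and 152, Ad IIa of 231 and 590, Ad IIb of 16 and 58, and Ad IIc of 34 and 658. The name Ad I stands for the first 2 labels taken as 1 group. The libraries shared 147 barcode sequences, of which 0 carried a label in both. Levels are given as CPM, the UMIs of a gene in 1000000 nuclear-encoded UMIs of the group, and in such sums fewer cells of a type and less RNA per cell cannot be told apart. The labels were checked against marker genes. The summed adipocyte markers stood at 18721 CPM in thymic and 28717 CPM in epigonadal Ad I, with the endothelial markers at 1742 and 1687 CPM. In thymic Ad IIa the endothelial markers reached 14821 CPM, while Adipoq, the defining adipocyte hormone, was at 9.96 CPM (4 UMIs). Epigonadal Ad IIa was mixed, with endothelial markers at 11187 CPM and Adipoq at 449 CPM. Ad IIc was endothelial by its markers in the thymic library (12863 CPM) and carried adipocyte markers in the epigonadal one (Adipoq 2513 CPM, endothelial list 575 CPM). A shared label therefore need not be the same cell class in the 2 libraries.

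Class I RNA was present under every label of both libraries and was lower in the thymic library. The summed level of the 5 class I genes over all labelled nuclei was 1436 CPM in the thymic library against 2113 CPM in the epigonadal one, a log2 ratio of −0.56 (95% interval −0.67 to −0.45). By label the sum was 868 CPM in thymic against 982 CPM in epigonadal Ad Ia, 732 against 1297 CPM in Ad Ib, and 1480 against 2115 CPM in Ad IIa. Ad IIb stood at 1332 and 2281 CPM, and Ad IIc at 1769 and 2567 CPM. Each thymic label stood below its epigonadal counterpart, and in both libraries Ad I held the lowest levels. In Ad I the ratio was −0.47 (−0.99 to −0.02), resting on 42 thymic and 297 epigonadal UMIs. In Ad IIa, where 594 and 2616 UMIs were counted, it was −0.51 (−0.65 to −0.39). Ad IIb and Ad IIc gave −0.76 (−1.31 to −0.28) and −0.53 (−0.85 to −0.24). Restricting both libraries to labelled nuclei with endothelial markers left the ratio at −0.54 (−0.66 to −0.42). Unlabelled barcodes, which hold the other cells and free RNA of each preparation, were at 1092 and 2030 CPM, a ratio of −0.89 (−0.95 to −0.84). Mitochondrial UMIs made up 13.2% of the thymic and 5.22% of the epigonadal UMIs of labelled nuclei, from 12.8% to 15.3% and from 3.29% to 6.29% by label. In unlabelled barcodes they made up 51.2% and 10.65%, and the part of this in the class I difference was not tested. Scaling by edgeR's TMM factors shifted every ratio by −0.15 over all labelled nuclei, by −0.34 for Ad I and by −0.06 for Ad IIa, which left the direction of these sums as given.

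**Figure D1:**
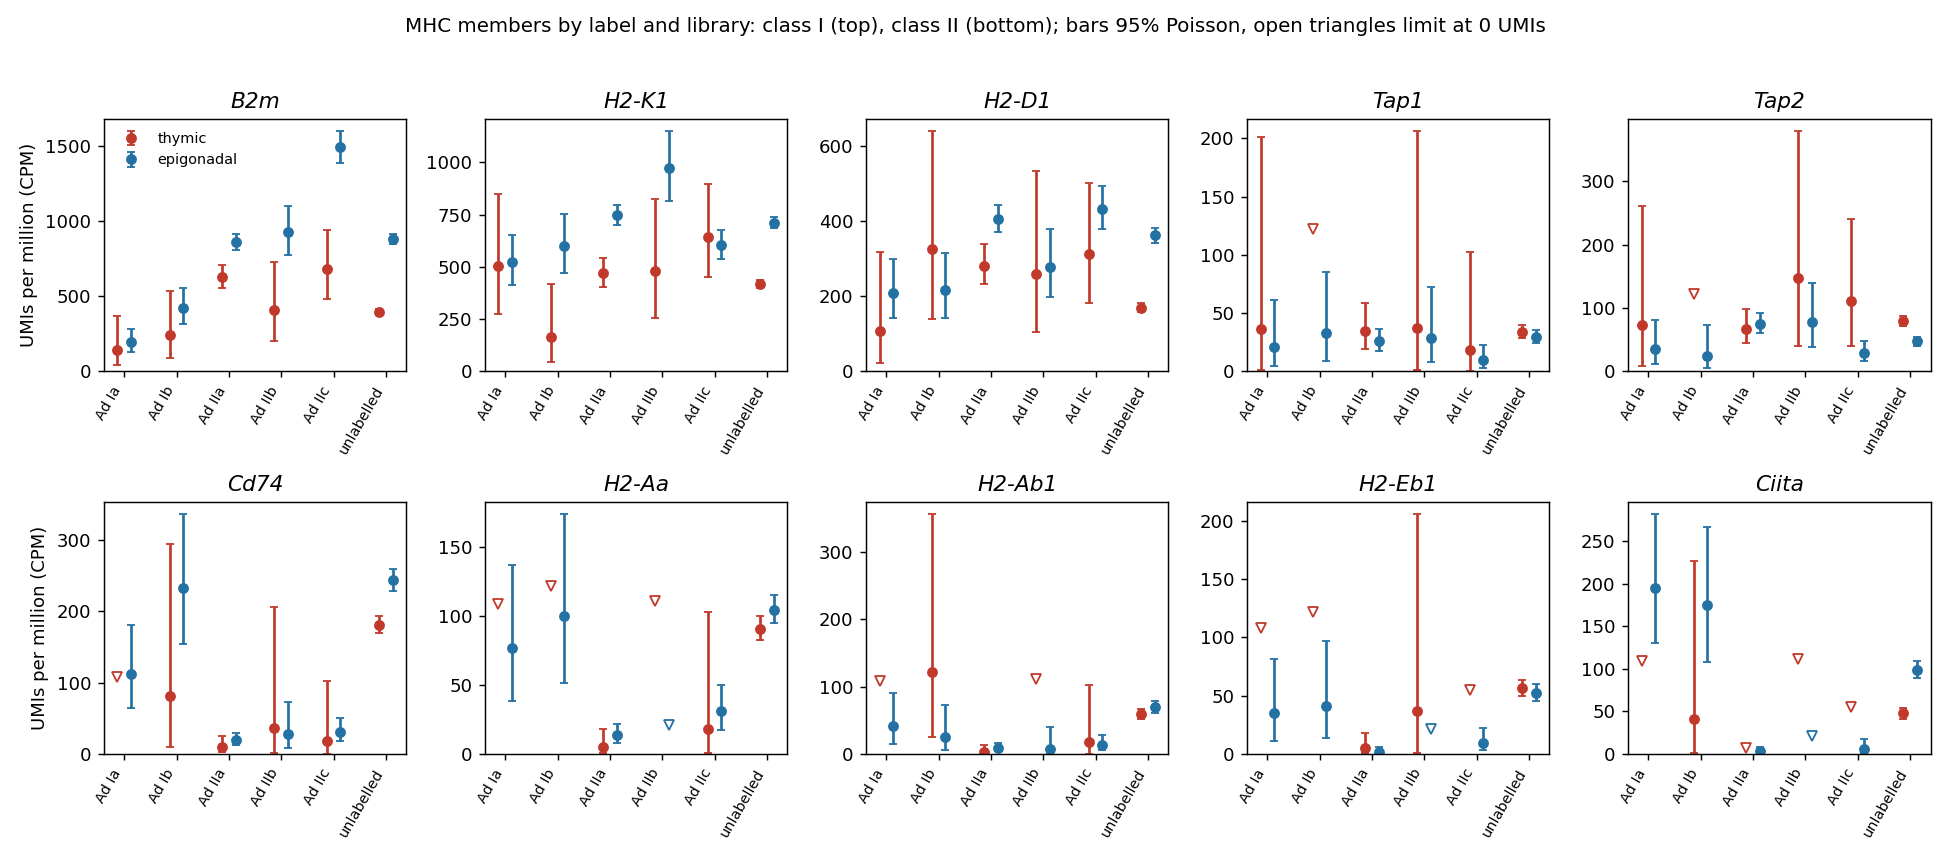
Level of each member in CPM (y axis) under each label and in unlabelled barcodes (x axis) of the thymic and epigonadal RNA libraries, with class I genes in the upper and class II genes in the lower row; points are 1 library each, bars are 95% Poisson intervals and open triangles are the limit of 3 counts where 0 UMIs were found. B2m in Ad IIc was at 682 CPM in the thymic and 1490 CPM in the epigonadal library. Among groups with a Ciita UMI, its level was above 100 CPM only in epigonadal Ad Ia and Ad Ib.

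In Ad IIa and over all labelled nuclei the class I light chain and heavy chains were lower in the thymic library, while the transporter genes differed by no more than their counting error. B2m stood at 145 CPM in thymic and 195 CPM in epigonadal Ad Ia, at 244 and 424 CPM in Ad Ib, and at 628 and 859 CPM in Ad IIa. Its levels were 407 and 924 CPM for Ad IIb, and 682 and 1490 CPM for Ad IIc. The thymic level was the lower one under every label, though in Ad Ia and Ad Ib it rested on 4 and 6 UMIs. In Ad IIa the ratio for B2m was −0.45 (−0.66 to −0.25) and in Ad IIc −1.11 (−1.65 to −0.65). H2-K1, a classical heavy chain, was at 506, 163, 468, 481 and 645 CPM from thymic Ad Ia to Ad IIc, and at 522, 599, 748, 973 and 604 CPM in the epigonadal library. Its Ad IIa ratio was −0.67 (−0.91 to −0.45), while in Ad IIc it was 0.11 (−0.45 to 0.60). H2-D1, the other classical heavy chain, was at 281.5 CPM in thymic and 407 CPM in epigonadal Ad IIa, a ratio of −0.53 (−0.84 to −0.23). In Ad I the H2-D1 levels rested on 11 and 56 UMIs and gave 0.04 (−1.09 to 0.94), or −0.30 with TMM scaling. Heavy-chain genes resemble one another closely, so reads could be split or dropped among H2-K1, H2-D1 and their relatives, and these levels are uncertain to that extent.

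Tap1 was counted 14 times in thymic and 32 times in epigonadal Ad IIa, at 34.9 and 25.9 CPM, with a ratio of 0.46 (−0.59 to 1.38). Tap2 was at 67.3 and 75.2 CPM there, a ratio of −0.14 (−0.84 to 0.47). Over all labelled nuclei the 2 transporter genes gave 0.54 (−0.38 to 1.34) and 0.32 (−0.25 to 0.84), so both intervals included 0. In Ad IIc, Tap2 was at 111 CPM (6 UMIs) in the thymic and 29.1 CPM (15 UMIs) in the epigonadal library, a ratio of 2.0 (0.27 to 3.38), across the change of cell class noted above. In unlabelled barcodes Tap2 was at 78.6 and 47.1 CPM, a ratio of 0.74 (0.48 to 1.01), while B2m, H2-K1 and H2-D1 there gave −1.16, −0.77 and −1.09. A gene was counted as past the fold when it differed at least 2-fold with at least 10 UMIs over both sides. Of the 5 class I genes, 0 were past it over all labelled nuclei, against 20.2% of all genes lower and 8.12% higher. In Ad I it was 0 of the 4 with 10 UMIs (all but Tap1), against 17.0% lower and 15.2% higher, and in Ad IIa 0 of 5 against 16.2% and 5.44%. In Ad IIb, of 4 measured genes, B2m was lower at −1.12 (−2.22 to −0.30) and Tap2 was on the higher side at 1.03 (−1.18 to 2.68), against 13.4% and 16.4%. In Ad IIc the same 2 genes were past the fold, in these directions, against 32.0% lower and 32.7% higher. In unlabelled barcodes B2m and H2-D1 were lower, against 22.4% of genes.

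The machinery that supplies class I peptides was read from a list of 11 genes. Over all labelled nuclei 11 of 11 had 10 UMIs, 1 was higher and 0 were lower, against 8.12% and 20.2% of all genes, and the median ratio was −0.57, against 0.02 for all genes. In Ad IIa the median was −0.51, against −0.02 for all genes, and 1 of 11 was lower, against 16.2% of genes. The 2 lowest were the proteasome activator subunits Psme1, at −1.02, and Psme2, at −0.97, and the 2 highest were the immunoproteasome subunit Psmb8, at 0.15, and the peptide-trimming enzyme Erap1, at 0.14. In Ad I 8 of the 11 had 10 UMIs, Erap1 was higher at 1.67, against 15.2% of genes higher, and the median was 0.01 against 0.08. The 8 regulators of class I transcription had a median of 0.13 in Ad IIa with 0 past the fold, against 5.44% of genes higher and 16.2% lower, and Irf2 was the highest at 0.84 (0.57 to 1.11). Other class I heavy chains gave a median of −0.31 over 9 measured genes, from 1.31 for H2-T24 to −2.35 for the lipid-presenting Cd1d1. The Cd1d1 value rested on 1 thymic UMI (−8.26 to −0.28). The genes that respond to or carry interferon gamma signals, a strong inducer of both MHC classes, had a median of −0.02 over 9 measured genes in Ad IIa. Of these, 1, the GTPase Igtp, was lower at −1.40, against 16.2% of genes. The Igtp value rested on 3 thymic UMIs, and its interval (−3.96 to 0.10) included 0.

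**Figure D2:**
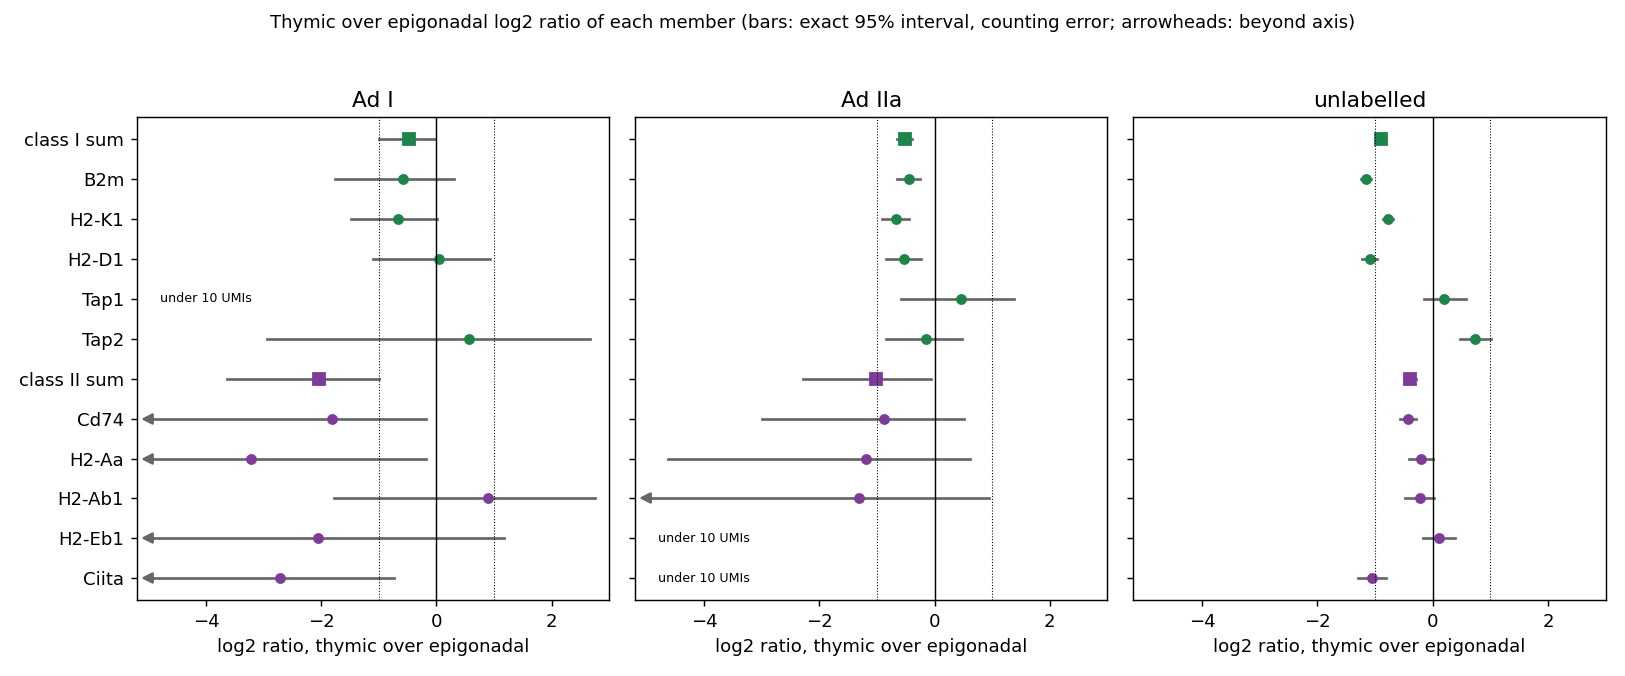
Log2 ratio of each member, thymic over epigonadal (x axis), in Ad I, Ad IIa and unlabelled barcodes; points compare 1 library with 1 library, bars are exact 95% intervals for counting error, arrowheads mark bars beyond the axis and dotted lines mark the 2-fold change. In Ad IIa the ratios of B2m, H2-K1 and H2-D1 lie between −0.67 and −0.45 with bars below 0, and in Ad I the Ciita ratio is −2.71.

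Class II RNA was sparse in labelled nuclei and was also lower in the thymic library. The 5 class II genes summed to 37.4 CPM (20 UMIs) over thymic and 114 CPM (246 UMIs) over epigonadal labelled nuclei, a ratio of −1.58 (−2.35 to −0.95). The epigonadal sums were 460 CPM for Ad Ia and 574 CPM for Ad Ib, and 47.7, 35.5 and 91.1 CPM for Ad IIa, Ad IIb and Ad IIc. Thymic Ad Ia was at 0, where 3 counts would be 108.5 CPM, and thymic Ad Ib was at 244 CPM on 6 UMIs. The remaining thymic labels were at 22.4, 74.0 and 55.3 CPM, on 9, 2 and 3 UMIs. Epigonadal Ad Ia and Ad Ib thus stood apart from the other epigonadal labels, while in the thymic library only Ad Ib was above 100 CPM, and without 1 of its nuclei, which held 4 of its 6 UMIs, it was at 83.6 CPM. Over all labelled nuclei 3 of the 5 genes were past the fold on the lower side, namely Cd74, H2-Aa and Ciita, against the 20.2% of all genes given above. Their ratios were −1.38 (−2.72 to −0.42), −2.00 (−4.53 to −0.59) and −3.22 (−9.12 to −1.26). H2-Ab1 and H2-Eb1 gave −0.36 and −0.31. In labelled nuclei that held no marker of B cells, macrophages or dendritic cells the class II sum gave −0.66 and Ciita −0.51. The Ciita value rested on 1 thymic UMI. These were 177 thymic and 842 epigonadal nuclei, of which 83 and 188 were Ad IIa, so the mix of labels changed as well.

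The difference was widest in Ad I, at 115 CPM (6 UMIs) for thymic and 512 CPM (135 UMIs) for epigonadal nuclei, a ratio of −2.04 (−3.63 to −1.0). Ciita was counted once in thymic Ad I and 49 times in epigonadal Ad I, a ratio of −2.71 (−8.61 to −0.73). Cd74 was counted 2 and 44 times, a ratio of −1.82 (−5.21 to −0.18). H2-Aa had 0 thymic and 23 epigonadal UMIs, and H2-Eb1 had 0 and 10. H2-Ab1 had 3 and 9 UMIs, a ratio of 0.90 (−1.77 to 2.75). By the fitted ratios 4 of the 5 genes were past the fold on the lower side (all but H2-Ab1), against 17.0% of genes lower and 15.2% higher. With the 2 genes at 0 set to the limit of 3 counts, the ratios of H2-Aa and H2-Eb1 became −0.60 and 0.60, and 2 of 5 were past the fold. The 6 thymic UMIs lay in 3 Ad Ib nuclei, with 1, 4 and 1 of them, and 2 of these nuclei held 5 different markers of B cells, macrophages or dendritic cells. Without the nucleus holding 4, thymic Ad I was at 38.8 CPM.

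In Ad IIa the class II sum was 22.4 CPM (9 UMIs) in the thymic and 47.7 CPM (59 UMIs) in the epigonadal library, a ratio of −1.02 (−2.29 to −0.07). H2-Aa and H2-Ab1 were past the fold, against 16.2% of genes lower and 5.44% higher, on 2 and 1 thymic UMIs. The direction of the sum did not hold in nuclei that had no marker of B cells, macrophages or dendritic cells, where the ratio was 0.62. That ratio covered 83 thymic and 188 epigonadal nuclei and at most 9 thymic UMIs, so it set no direction of its own. Ciita had 0 UMIs in thymic Ad IIa (3 counts would be 7.47 CPM) and 4 in epigonadal Ad IIa (3.23 CPM). The other labels had 2 or 3 thymic class II UMIs each, and their ratios were not resolved by counting.

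Depth differed between labels, so shares of nuclei with at least 1 class II UMI were also taken after thinning every nucleus to 500 UMIs. In the epigonadal library the thinned class II share was 16.0% for Ad Ia and 25% for Ad Ib (31.1% and 32.2% unthinned), against 2.54% for Ad IIa and 4.10% for Ad IIc (8.81% and 6.38% unthinned). Unlabelled epigonadal barcodes with T-cell markers, which should lack class II RNA in the mouse, gave 3.36% thinned and 6.72% unthinned at a median of 993 UMIs. Median depths in the order of these 4 labels were 1077, 678.5, 1916 and 714 UMIs. Ad IIa and Ad IIc were thus close to this T-cell share, and Ad Ia and Ad Ib were above it. Unlabelled epigonadal barcodes with adipocyte markers had a higher thinned share, 9.6% (8.39% to 10.92%), and those with endothelial markers had 7.48%. The interval of Ad Ia (9.63% to 24.43%) overlapped those of both classes. The interval of Ad Ib (18.34% to 32.66%) lay above both. Thymic Ad IIa was at 1.75% thinned (3.46% unthinned), near the 2.06% of thymic T-cell barcodes (3.32% unthinned, median 545 UMIs). Thymic Ad Ia had 0 of 26 nuclei, which by the limit of 3 counts allows a share of nuclei with a class II UMI of up to 11.5%, and Ad Ib had 18.75% of 16 (6.12% unthinned). Thinning left out 9 and 33 shallower thymic nuclei of these 2 labels.

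The accessory genes of class II presentation were read from 2 lists. Of 12 genes that process and load class II peptides, 8 had 10 UMIs over all labelled nuclei, 5 were lower in the thymic library and 0 were higher, with a median of −1.23 (4 lower and −0.90 with genes at 0 set to their limit), against 20.2% of all genes lower. The lysosomal protease Ctsl, the most counted of them, was at 101 CPM in thymic and 171 CPM in epigonadal nuclei. In Ad IIa 3 of 6 were lower, with a median of −1.11, against 16.2% of all genes lower. The lowest were the asparaginyl endopeptidase Lgmn at −2.94 (−8.85 to −0.93) and the invariant-chain protease Ctss at −2.35 (−8.26 to −0.28). Each of the 3 rested on 1 thymic UMI. In Ad I Ctss had 0 thymic and 19 epigonadal UMIs. Of 9 regulators of class II genes other than Ciita, 2 were higher and 1 was lower over all labelled nuclei, with a median of 0.37, against 8.12% of all genes higher and 20.2% lower. The NF-Y subunit Nfyc was higher in thymic Ad I at 3.10 (1.98 to 4.34), and the subunit Nfya was higher in thymic Ad IIa at 1.14.

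Markers of antigen-presenting cells moved with class II RNA in Ad I. The summed macrophage markers were at 191 CPM in thymic Ad I, with 8 of 12 markers at 0, and at 819 CPM in epigonadal Ad I, with 1 of 12 at 0. B-cell markers, leaving out Ebf1 because fat cells also use it, were at 249 and 629 CPM, and dendritic markers at 57.4 and 91.0 CPM with 9 and 7 of 10 at 0. T-cell markers were at 651 and 265 CPM. Epigonadal Ad I nuclei were split by how many of the B-cell, macrophage and dendritic markers each held. The 115 nuclei with 0 such markers had class II RNA at 270 CPM (24 UMIs), the 93 with 1 or 2 at 428 CPM, and the 50 with 3 or more at 826 CPM. The median depth in these 3 classes was 648, 754 and 1606 UMIs, so nuclei with more markers were also deeper. In the 72 thymic and 115 epigonadal Ad I nuclei without such markers the class II ratio was −2.77, on 1 and 24 UMIs.

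Ciita, the switch gene of the class, had its highest level among labelled nuclei in epigonadal Ad Ia and Ad Ib. It was at 195 CPM in Ad Ia (28 UMIs in 18 of 106 nuclei, at most 6 in one) and at 175 CPM in Ad Ib (21 UMIs in 17 of 152 nuclei). It was at 3.23 CPM in Ad IIa, 5.81 CPM in Ad IIc and 99.0 CPM in unlabelled epigonadal barcodes. Among the latter, barcodes with B-cell markers had Ciita at 586 CPM (58 UMIs), above both Ad I labels. The nuclei that held Ciita were described for each label, and Ad Ia and Ad Ib were not tested against each other. In Ad Ia it was at 46.0 CPM (5.57 to 166) in the 45 nuclei with 0 markers of antigen-presenting cells, at 24.7 CPM (0.626 to 138) in the 33 with 1 or 2, and at 419 CPM (271 to 619) in the 28 with 3 or more, which held 25 of the 28 UMIs. In Ad Ib the values were 110 CPM (35.7 to 257), 206 CPM (94.1 to 391) and 225 CPM (90.4 to 463), with overlapping intervals. The intervals of the 2 labels also overlapped in each marker class. Median depth in these classes was 677, 1007 and 1964 UMIs for Ad Ia and 620, 708 and 852.5 UMIs for Ad Ib. The part of depth in the Ad Ia split was not tested. The high level of Ad Ia thus lay in nuclei that also held markers of presenting cells, and in nuclei with 0 markers the 2 labels had 2 and 5 UMIs. The 35 nuclei with a Ciita UMI had macrophage markers at 1181 CPM and B-cell markers without Ebf1 at 1212 CPM, against 702 and 441 CPM in the 223 without one. Their adipocyte markers were at 25825 CPM, against 29650 CPM, and their median depth was 1409 against 702 UMIs. By label, nuclei with and without Ciita had adipocyte markers at 29428 and 34109 CPM in Ad Ia and at 16720 and 25390 CPM in Ad Ib. Their B-cell markers without Ebf1 were at 976 and 390 CPM in Ad Ia and at 1809 and 490 CPM in Ad Ib. Median depth was 2894 and 836 UMIs in Ad Ia and 801 and 675 UMIs in Ad Ib.

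The balance of Ciita and Cd74, the switch and one of its main targets, was compared between cell groups of the epigonadal library. Ciita made up 63.6% (47.8% to 77.6%) of the Ciita and Cd74 UMIs for Ad Ia, against 42.9% (28.8% to 57.8%) for Ad Ib. It made up 26.9% (21.1% to 33.3%) in unlabelled barcodes with B-cell markers and 22.5% (18.4% to 27.0%) in those with macrophage markers. Unlabelled barcodes with adipocyte markers gave 33.7% (28.6% to 39.2%), and all unlabelled barcodes 28.9%. The interval of Ad Ia lay above those of the 3 unlabelled marker classes, but this rested on the 28 nuclei with 3 or more markers, at 71.4% (53.7% to 85.4%). The other 78 Ad Ia nuclei held 3 Ciita and 6 Cd74 UMIs, a share of 33.3% (7.49% to 70.1%), which overlapped the unlabelled classes. The interval of Ad Ib overlapped those of the B-cell and adipocyte classes. The other class II genes, Cd74, H2-Aa, H2-Ab1 and H2-Eb1, had 44, 23, 9 and 10 UMIs in Ad I and 920, 396, 262 and 198 UMIs in all unlabelled barcodes.

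**Figure D3:**
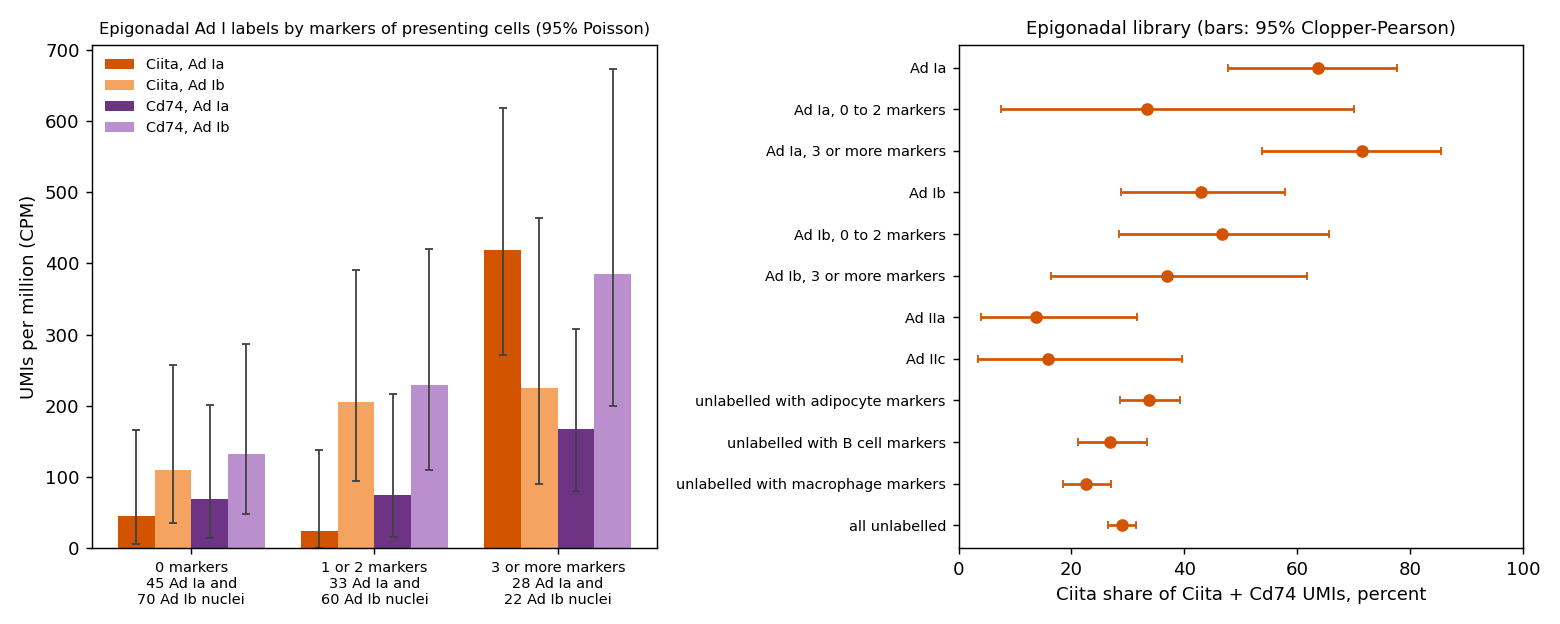
Left, Ciita and Cd74 in CPM (y axis) in epigonadal Ad Ia and Ad Ib nuclei with 0, 1 or 2, and 3 or more markers of B cells, macrophages or dendritic cells (x axis), with 95% Poisson bars; right, the Ciita share of Ciita and Cd74 UMIs in percent (x axis) by group of the epigonadal library, with 95% Clopper-Pearson bars. Ciita is at 46.0, 24.7 and 419 CPM in the 3 classes of Ad Ia nuclei and at 110, 206 and 225 CPM in those of Ad Ib, and its share in Ad Ia is 71.4% with 3 or more markers and 33.3% with fewer.

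The 2 class sums ran in opposite directions between Ad IIa and Ad I of the epigonadal library. The class I sum was higher in Ad IIa than in Ad I by a log2 ratio of 0.91 (0.74 to 1.09), while the class II sum was lower, at −3.42 (−3.89 to −2.97). B2m gave 1.51 (1.19 to 1.87), H2-K1 0.42 (0.17 to 0.69), H2-D1 0.93 (0.54 to 1.36) and Tap2 1.23 (0.27 to 2.56), and 2 of the 5 class I genes were past the fold, against 19.8% of genes higher. Cd74 was at −3.03 (−3.81 to −2.31), H2-Ab1 at −1.95 (−3.35 to −0.49), H2-Eb1 at −4.30 (−7.78 to −2.32) and Ciita at −5.69 (−7.78 to −4.40). With H2-Aa, 5 of the 5 class II genes were past the fold on the lower side, against 17.5% of genes. Ad IIc over Ad I gave 1.19 (1.01 to 1.38) for the class I sum and −2.48 (−3.00 to −2.00) for the class II sum. Of the class I genes there, B2m at 2.31 (1.98 to 2.67) and H2-D1 at 1.02 (0.60 to 1.48) were past the fold on the higher side, against 24.3% of genes, and Tap1, on 5 and 7 UMIs, was on the lower side at −1.42 (−3.45 to 0.42), against 37.5% of genes. H2-K1 gave 0.12 (−0.17 to 0.41) and Tap2 −0.10 (−1.39 to 1.38), both with intervals that included 0. Of the class II genes 5 of 5 were lower. The macrophage markers were at 250 CPM in epigonadal Ad IIa, against the 819 CPM in Ad I given above, and their part in the class II difference was not tested. In the thymic library B2m in Ad IIa over Ad I was at 1.65 (0.81 to 2.79), the class I sum at 0.86 (0.43 to 1.37) and the class II sum, on 9 and 6 UMIs, at −2.39 (−4.01 to −0.59). Without the Ad Ib nucleus that held 4 of those 6, the thymic class II ratio was −1.03 (−3.06 to 2.46), so its direction was not resolved. B2m was the class I gene past the fold there, against 28.2% of genes higher.

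Interferon-responsive genes were higher in Ad IIa than in Ad I, but in epigonadal Ad IIc over Ad I they went both ways. In epigonadal Ad IIa over Ad I, 5 of 9 measured genes of the interferon gamma list were higher and 0 lower, with a median of 1.83, against 0.07 for all genes and 19.8% of genes higher. The guanylate-binding proteins Gbp4 and Gbp7 were the 2 highest, at 3.17 and 2.53. Of 11 class I supply genes 3 were higher there, the immunoproteasome subunits Psmb8 (1.65) and Psmb9 (1.63) and the activator Psme2 (1.08), a share not far from the 19.8% of all genes. Of the class I regulators, Irf1 was at 2.16 (1.24 to 3.48) and Nlrc5, the transactivator of class I genes, at −1.11 (−1.68 to −0.50). Class II loading genes were lower in 4 of 7, against 17.5% of all genes, led by H2-DMb1 at −4.16, which edits the peptide in the groove, and the ubiquitin ligase March1 at −3.08. In the thymic library the interferon list had a median of 1.58 over 8 genes with 6 higher (1.14 and 4 with genes at 0 set to their limit), against 28.2% of all genes higher. There Iigp1, an interferon-inducible GTPase, was at 3.18 (1.25 to 9.08). In epigonadal Ad IIc over Ad I, Gbp2 at 1.35 (−0.07 to 3.49) and Igtp at 1.84 (−0.46 to 7.79) were past the fold on the higher side. Ifngr2 at −2.07, Jak1 at −1.06 and Jak2 at −2.17 were past it on the lower side. The other measured genes of the list lay within the fold, and all genes gave 24.3% higher and 37.5% lower.

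Most class II RNA lay outside the labelled nuclei. Unlabelled barcodes held 2005 class II UMIs of the thymic matrix and 2150 of the epigonadal matrix, at 436 and 569 CPM. Labelled over unlabelled, the class II sum gave −3.51 (−4.26 to −2.91) for thymic and −2.32 (−2.52 to −2.13) for epigonadal nuclei, and 5 of 5 genes were past the fold on the lower side in each. The background on that side was 23.8% of genes for the thymic comparison and 14.9% for the epigonadal one. The class I sum gave 0.40 and 0.06. A further list held co-stimulatory genes, which a presenting cell needs to activate a T cell, together with checkpoint ligands. In labelled nuclei of the epigonadal library 4 of its 6 measured genes were lower, with a median of −1.59, against 14.9% of all genes. The 4 were the co-stimulatory Cd80 (−2.36), Cd86, Cd40 (−1.35) and Icosl (−1.83). There Cd86 was at −2.38 (−3.48 to −1.53), the inhibitory ligand Cd274 at 0.50 and the checkpoint ligand Cd276 at −0.96.

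Unlabelled barcodes were placed in marker classes when they held at least 2 markers of 1 cell type and more than of any other. Class II RNA was concentrated in the classes that present antigen. Dendritic-marker barcodes were at 7894 CPM in the thymic and 6159 CPM in the epigonadal library (10 and 7 barcodes), B-cell-marker barcodes at 3033 and 3204 CPM (386 and 126 barcodes), and macrophage-marker barcodes at 3357 and 2235 CPM (72 and 228 barcodes). T-cell-marker barcodes were at 87.1 and 76.7 CPM and endothelial-marker barcodes at 56.2 and 176 CPM. The classes that held the class II UMIs were not the same in the 2 libraries. In the thymic library 28.9% of the unlabelled class II UMIs lay in B-cell-marker barcodes and 6.38% in macrophage-marker barcodes, against 14.7% and 30.1% in the epigonadal library. Barcodes with adipocyte markers held 6.23% and 26.1%, and barcodes in no class held 32.7% of the thymic ones. Single barcodes could weigh heavily, since 1 held 102 of the 2005 thymic UMIs and another 115 of the 2150 epigonadal ones.

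Between the libraries, the class II sum differed by less than counting error in B-cell-marker barcodes and by more in macrophage-marker barcodes. The B-cell class gave −0.08 (−0.28 to 0.12) for the class II sum, thymic over epigonadal, with Cd74 at −0.36 (−0.66 to −0.06). The macrophage class gave 0.59 (0.30 to 0.86). Within it H2-Eb1 was at 1.82 (1.14 to 2.46) and H2-Ab1 at 1.05 (0.28 to 1.72), both past the fold against 14.7% of genes higher, and H2-Aa was at 0.75 (0.06 to 1.35), while Cd74 gave −0.06 (−0.61 to 0.42). These thymic values came from 72 barcodes and 128 class II UMIs, and with at least 3 markers required the thymic level was 2669 CPM. Class I sums were less spread over the marker classes, from 826 CPM in T-cell-marker to 1657 CPM in dendritic-marker barcodes among the thymic classes named here. In the epigonadal library T-cell-marker barcodes were at 2326 CPM and endothelial-marker barcodes at 2418 CPM, against 1570 CPM for endothelial-marker barcodes of the thymic library.

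**Figure D4:**
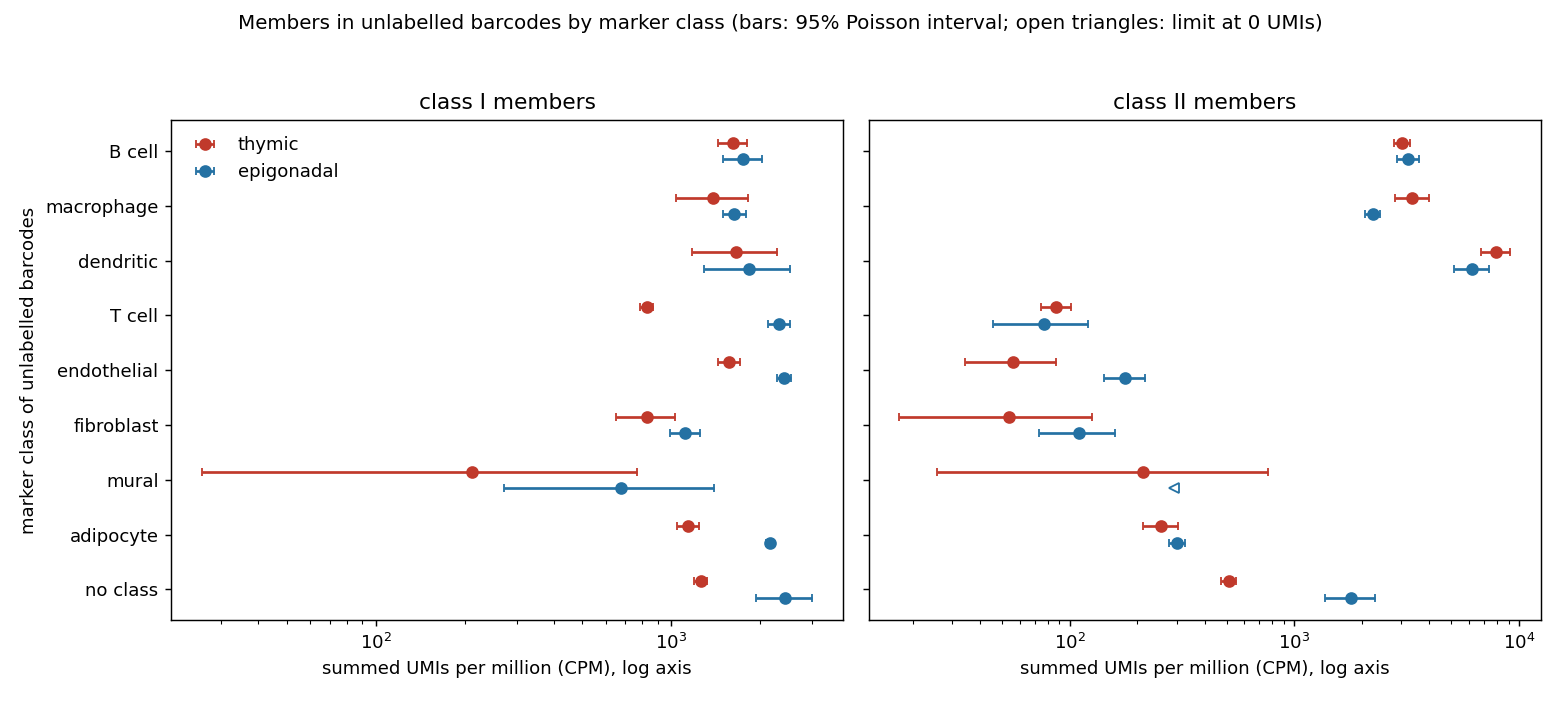
Summed class I (left) and class II (right) level in CPM (x axis, logarithmic) of unlabelled barcodes by marker class (y axis) in the thymic and epigonadal RNA libraries; bars are 95% Poisson intervals and open triangles the limit of 3 counts at 0 UMIs. In the thymic library class II RNA is at 87.1 CPM in T-cell-marker and 7894 CPM in dendritic-marker barcodes, while class I RNA is at 826 and 1657 CPM in the same classes.

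The genes whose levels were most like the 2 sums were named by Pearson correlation of log2(CPM + 1) over the 12 groups, made up of 5 labels and the unlabelled barcodes of 2 libraries. Among 7390 genes with at least 200 UMIs, those nearest to the class I sum were Cavin1 (0.91), Actg1 (0.89), Rbis (0.89), Fabp4 (0.88) and Polr2l (0.88). Nearest to the class II sum were Dock8 (0.93), Aff3 (0.92), Man1a (0.88), Selenos (0.88) and Rbpj (0.88). The groups share libraries and differ in depth, so these values only describe likeness over 12 points.

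Chromatin at the members was examined in 317 labelled nuclei of the 6-month female thymus, with 146 under the label thyAD I, 140 under thyAD II and 31 under Immune. They held 1646902, 2189613 and 561387 fragments, and the median enrichment of insertions at gene starts was 7.16, 6.59 and 8.09. Fragments were counted over each gene with 2 kb on either side, scaled to 1000000 fragments of the label (FPM) and divided by the kb of window. The class I windows were at 3.31, 3.79 and 4.11 FPM per kb in thyAD I, thyAD II and Immune nuclei, above 92.5%, 93.9% and 94.6% of 49943 gene windows. The class II windows were at 0.715, 0.744 and 0.821 FPM per kb, above 68.7%, 68.3% and 70.2% of windows, against a median window at 0.274, 0.284 and 0.346. Both are pooled values of 5 windows set against single windows, and the class II value includes the long Ciita window. B2m was at 4.39, 4.42 and 4.17 FPM per kb, H2-D1 at 4.26, 5.11 and 4.45, and Tap1 at 3.24, 5.21 and 6.12. Tap2 was lower, at 1.99, 1.56 and 2.81, and in thyAD II it stood below Cd74, which was at 1.28, 1.71 and 1.39. Of the class II genes, H2-Eb1 was at 1.56, 1.08 and 1.68 FPM per kb and Ciita, the longest member, at 0.276, 0.266 and 0.324, close to the median window.

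Over windows of each gene with 2 kb on either side, differences between the chromatin labels were small. The class I sum was 185.2 FPM in thyAD I (305 fragments) and 211.9 FPM in thyAD II (464), a log2 ratio of 0.19 (−0.02 to 0.41), and the class II sum gave 0.06 (−0.29 to 0.41). Tap1 was the member whose interval excluded 0, with 73 fragments in thyAD I and 156 in thyAD II, a ratio of 0.68 (0.27 to 1.11). Immune over thyAD I gave 0.31 (0.003 to 0.61) for class I, 0.21 (−0.32 to 0.70) for class II and 0.92 (0.36 to 1.47) for Tap1. The Tap1 start differed more than its whole window. Around 250 bases before it, thyAD I, thyAD II and Immune nuclei were at 15.2, 33.3 and 39.2 FPM (25, 73 and 22 fragments). Around 250 bases after it they were at 8.50, 25.6 and 21.4 FPM. H2-Eb1 went the other way before its start, at 6.07, 2.28 and 1.78 FPM on 10, 5 and 1 fragments. The window of Tap1 also covers the start of its neighbour Psmb9, so its fragments cannot be given to 1 gene. Over the whole windows 0 of the 10 members were past the fold in either comparison. Of all windows, 4.46% were higher and 2.99% lower in the first comparison, and 9.50% and 9.48% in the second. Within thyAD I, B2m was higher in joint cluster 3 (33 fragments) than in joint cluster 1 (35 fragments), at 1.02 (0.29 to 1.75), and was past the fold, against 3.77% of windows higher. These 2 clusters also differed in median enrichment at gene starts (7.92 and 6.68) and in median fragments per nucleus (8414 and 12369). The part of this in the B2m ratio was not tested.

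The nuclei labelled Immune carried the chromatin of T cells more than of presenting cells. Of 14 T-cell marker windows 11 were higher in Immune than in thyAD I, with a median of 2.02, against 9.50% of all windows higher. The medians of macrophage, B-cell and dendritic markers were −0.20, −0.24 and 0.86. Of their measured windows 1 of 7, 1 of 8 and 3 of 7 were higher. On the lower side were 1, 2 and 1 of them, against 9.48% of all windows. Class II loading genes gave a median of 1.31 with 6 higher and 1 lower of 11 measured windows, against −0.03 for all windows, of which 9.48% were lower. March1 was at 1.46 (1.03 to 1.89) on 92 and 98 fragments, and March8, a related ligase, was the lower one at −1.13 (−2.14 to −0.32). The other higher windows in this list rested on 10 or fewer fragments in Immune nuclei.

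**Figure D5:**
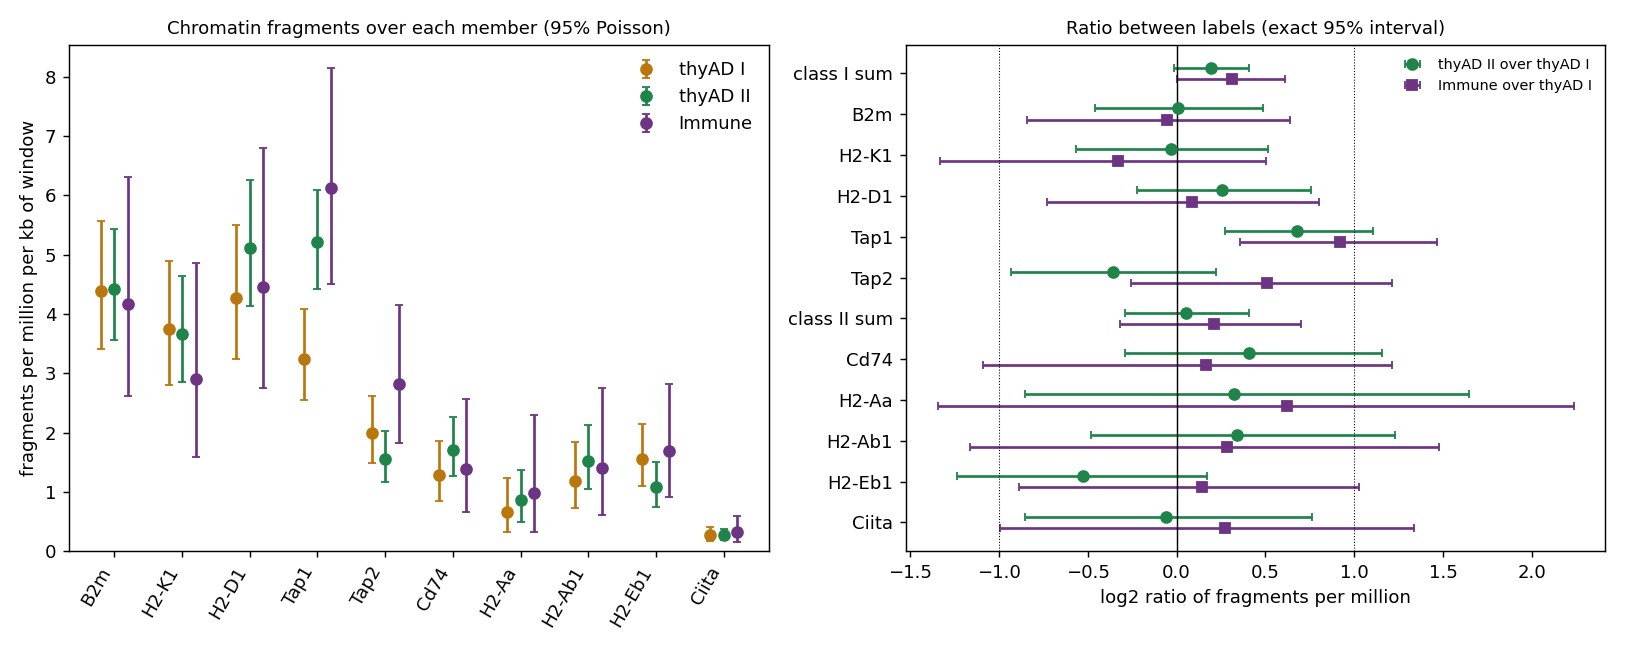
Left, FPM per kb of window (y axis) over each member (x axis) in thyAD I, thyAD II and Immune nuclei of the 6-month thymus library, with 95% Poisson bars; right, log2 ratio of FPM between labels (x axis) for each member, with exact 95% bars for counting error. The windows of B2m, H2-K1, H2-D1 and Tap1 lie above those of the 5 class II genes in each label, and Tap1 has ratios of 0.68 and 0.92.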

How the data were processed

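The authors deposited unnormalized UMI counts for every gene and barcode. Per the file headers the matrices come from cellranger 7.2.0, which give no build. Per the deposited tables, each labelled nucleus also had its UMI count, percent of mitochondrial UMIs, doublet class (1929 nuclei, all singlets) and label. Fragment counts were deposited from cellranger-arc 2.0.2 on GRCm38, per the file headers, with an enrichment ratio at gene starts from the authors. The submitters' processing notes name Seurat 5.1.0. The copy of the 6-month table used here stopped inside row 318, so 317 rows were used, 4.35% of all fragments.

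For each label of a library, UMIs were added up and scaled to nuclear-encoded UMIs. Log2 ratios had 0.5 UMI added to each sum. Intervals at 95% were exact: Poisson for sums, Clopper-Pearson for shares and the binomial split for ratios. A count of 0 was given a limit of 3 counts. Named genes were all members, the 2 highest and 2 lowest of each of 7 pathway lists, the highest in unlabelled barcodes, and 5 pattern neighbours per class. The members, pathway lists and 12 marker lists were chosen with earlier results of these data known. Alternatives were TMM (edgeR 4.0.16) and median-of-ratios scaling, totals without 3 abundant RNAs, equal weight per nucleus, a pseudocount of 5, nuclei of at least 1000 UMIs, subtraction of 10% of the unlabelled profile, thinning to 500 UMIs, and for chromatin other windows, cut sites and nuclei of at least 3000 fragments. Leaving out nuclei with markers of antigen-presenting cells, or the nucleus with most class II UMIs, was chosen after seeing the data. Scripts used Python 3.11.15, scipy 1.17.1 and R 4.3.3 and were tested on simulated data.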

Additional observations from a re-analysis of the deposited data

How the results depend on the processing

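The class I ratio over all labelled nuclei (−0.56) was −0.71 with TMM scaling, −0.68 with equal weight per nucleus and −0.92 in nuclei without markers of antigen-presenting cells. The class II ratio over all labelled nuclei (−1.58) was at most −3.35 after subtracting 10% of the unlabelled profile, which left 0 thymic UMIs (set to the limit of 3 counts), and −0.66 in nuclei without those markers. In Ad I the class I ratio ranged from −0.81 to −0.18, and the class II ratio from −3.35 to −1.33. In nuclei of at least 1000 UMIs (9 thymic and 79 epigonadal) thymic Ad I had 0 class II UMIs, and the ratio at the limit was −1.86. In Ad IIa the class I ratio was −0.75 without marker-bearing nuclei. The class II ratio there turned to 0.62 without them (83 thymic and 188 epigonadal nuclei left), and the subtraction left 0 UMIs on both sides and gave no ratio. For the other moves the cause was not tested. Of 53 alternatives for the 6 RNA class sums, 46 stayed within the counting interval, 6 moved beyond it and 1 reversed, and 16 of 16 chromatin alternatives stayed within it. Among single members 15 of 234 RNA and 4 of 79 chromatin alternatives moved and 2 RNA alternatives reversed. Both were for H2-Aa in Ad I, which had 0 thymic UMIs and was −0.60 at the limit: the limit was 1.08 in nuclei of at least 1000 UMIs and 0.52 in nuclei without marker genes, so neither gave a direction. Thinning moved 15 of 20 shares of nuclei. Thymic Ad I, with 84 nuclei, limited what could be seen of class II RNA. No paired analysis was possible because each group is 1 library and the labels give no shared replicates.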
